A study of Mus musculus with 23 samples.

Results

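Oxidative phosphorylation subunits were taken as the nuclear genes whose symbol starts with Nduf (complex I), Uqcr (complex III), or Atp5 (complex V, ATP synthase), together with Sdha to Sdhd (complex II) and the Cox4i, Cox5, Cox6, Cox7, and Cox8 genes (complex IV, cytochrome c oxidase). Of 94 genes matched by symbol, 92 had at least 10 counts in at least 5 mice and are called members here, out of 14364 genes that passed this filter. The members comprised 37 genes of complex I, 8 assembly factors of complex I (Ndufaf genes, which are not subunits), 4 of complex II, 8 of complex III, 18 of complex IV, and 17 of complex V. Ndufa4 and Ndufa4l2 were counted with complex IV despite their symbols. Ndufa11b, with at most 3 counts in any mouse, and Ndufb4b, with at most 17, did not pass. They were followed by RNA-Seq in femur and tibia freed of marrow by spinning, from 23 female C57BL6/N mice aged 11 weeks, each sequenced on its own. WT Control (n = 5) and KO Control (n = 6) received saline, and WT T1D (n = 6) and KO T1D (n = 6) received streptozotocin, a toxin of pancreatic β cells, in injections of 100 mg/kg and were diabetic for 3 weeks. KO stands for animals whose label reads Sarm1-KO. Sarm1 encodes an NADase that drives axon degeneration, and the knockout is global.

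The respiratory chain sits in the inner mitochondrial membrane. Complexes I and II feed electrons from NADH and succinate to ubiquinone, complex III passes them to cytochrome c, and complex IV hands them to oxygen. Proton pumping by complexes I, III, and IV drives ATP synthase. Mitochondrial DNA encodes some of the subunits, and these were not analysed here, so all members are nuclear genes. Several complex IV subunits have a widely expressed isoform and a second isoform restricted to muscle, testis, or other settings. Osteoblasts and osteoclasts both use oxidative metabolism, and bone that has been spun free of marrow still contains erythroid and myeloid cells and remnants of muscle.

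Total counts per mouse ranged from 16938101 to 20135592, and no 2 mice looked like repeats of the same library (chi-square per gene from 10.9 to 187 over 55 pairs within groups). Sarm1 was low in each group, from 0.845 to 1.76 CPM (counts scaled to library size) in WT Control, 0.340 to 1.21 in WT T1D, 0.268 to 1.57 in KO Control, and 0.811 to 1.46 in KO T1D. The knockout could thus not be checked from Sarm1 counts, and genotypes are those on the labels. Osteoblast and osteocyte markers (12 of 12 tested, led by Col1a1 and Col1a2) summed to between 53248 and 118401 CPM in 21 mice, but to 6477 and 5050 CPM in WT T1D mice A3905 and A3906. Bulk RNA cannot tell apart fewer cells of a type and less RNA per cell. These 2 mice stood apart in other lists too. Hemoglobin genes held 46.9% and 46.7% of all TPM (a unit scaled by gene length and by the total of the library) in them and 23.4% to 40.7% in the other mice. Their osteoclast markers (8 of 8 tested) summed to 4333 and 4639 CPM against 1479 to 2950 CPM in the other mice, neutrophil markers (10 of 10) to 42615 and 38608 CPM against 22679 to 37259 CPM, and adipocyte markers (5 of 7) to 357 and 385 CPM against 110 to 191 CPM. Their B cell markers (8 of 8) were the lowest, at 167 and 203 CPM against 381 to 1000 CPM, while macrophage markers (8 of 8) were at 1548 and 1613 CPM, within the range of the other mice (1369 to 1678 CPM). The part of this cell makeup in the WT T1D values was not tested beyond leaving out the 2 mice and the erythroid covariate. WT Control mouse A3903 and KO Control mouse A3679 had the highest summed skeletal muscle markers (11667 and 11001 CPM, against 304 to 7206 CPM in the other mice). Many, but not all, of the results that rest on these mice are given with and without them. IDs of 1 WT Control and 3 WT T1D mice began with A17 and all others with A36 to A39. What the ID series stands for was not given.

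Levels differed widely between members and little between mice. On the TPM scale, the mean over 23 mice ran from 2.91 TPM for the assembly factor Ndufaf6 to 659 ± 48.2 TPM (SD) for Cox6a1, the widely expressed form of a small complex IV subunit, with a median of 110 TPM for members against 9.91 TPM for all tested genes. In complex I, the accessory subunit Ndufa3 was the most abundant (582 TPM) and Ndufs4, an accessory subunit needed for a stable complex, the least (20.9 TPM). The 8 assembly factors were lower, with a median of 8.31 TPM against 80.1 TPM for complex I subunits, and Ndufaf8 was the highest of them (35.4 TPM). The 4 genes of complex II were close together, at 101 TPM for Sdhb (the iron-sulfur subunit), 90.5 TPM for the membrane anchor Sdhc, 61.7 TPM for Sdha (the flavoprotein), and 55.6 TPM for the other anchor, Sdhd. In complex III, levels ran from Uqcrfs1, the Rieske iron-sulfur protein (54.9 TPM), to the small subunit Uqcr11 (258 TPM). In complex V, they ran from Atp5s (7.07 TPM), a coupling factor listed under its RefSeq name Dmac2l in newer annotation, to Atp5b, the catalytic β subunit (450 TPM). The 3 genes for the same mature c-ring protein were all expressed, with 333 TPM for Atp5g2, 190 TPM for Atp5g3, and 168 TPM for Atp5g1. On the log2 CPM scale, the spread between mice of one group had a median SD of 0.161 for members and 0.209 for all tested genes, and it reached 1.27 for the muscle isoform Cox8b. Together, members held 1.13% to 1.86% of all TPM. WT mice had 1.38% ± 0.187 (SD, n = 5) without and 1.26% ± 0.134 (n = 6) with diabetes, and KO mice had 1.42% ± 0.237 (n = 6) without and 1.30% ± 0.0637 (n = 6) with it. With hemoglobin genes left out of the total, the same shares were 1.99% ± 0.219, 2.12% ± 0.0658, 2.06% ± 0.260, and 1.92% ± 0.0802, so that WT T1D moved from the lowest of the 4 mean shares to the highest.

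**Figure D1:**
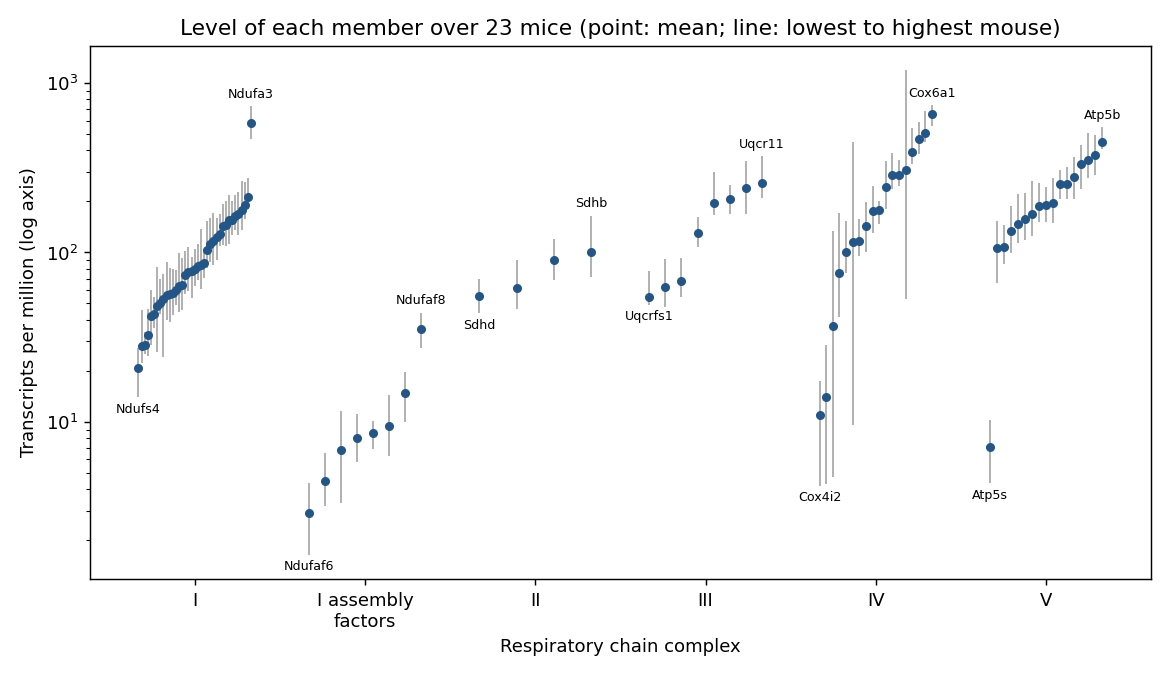
Mean level of each of the 92 members over 23 mice in TPM on a log axis, by complex, with a line from the lowest to the highest mouse and the least and most abundant member of each complex named. Assembly factors lie between 2.91 and 35.4 TPM, and the long lines in complex IV belong to the muscle isoforms Cox6a2, Cox7a1, and Cox8b.

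Whether T1D altered these genes in WT bone was asked first, and 0 of the 92 members passed an adjusted p under 0.05 in edgeR (WT T1D minus WT Control), while 2.33% of all tested genes did. At an unadjusted p under 0.05, 12 members were higher (13% of members, against 11.0% of all tested genes) and 0 lower (against 11.2%). On the TMM-normalized scale, 72 of 92 members had a higher mean in WT T1D (78.3%, against 48.1% of all tested genes), with a median log2 difference of 0.12 (−0.01 for all tested genes). This direction turned on the TPM scale, where the median was −0.16 for members and −0.24 for all tested genes, and members thus lay above the median of all tested genes on both scales, by 0.13 and 0.08. The higher means were not particular to members. Of 78 genes for mitochondrial ribosomal proteins, 56 had a higher mean on the TMM scale (71.8%), with a median of 0.08. At an unadjusted p under 0.05 in edgeR, 15 of these 78 were higher (19.2%) and 1 lower, and 0 were called. Their median on the TPM scale was −0.20. The 12 members were 4 of complex I, 1 assembly factor, 1 of complex III, 3 of complex IV, and 3 of complex V. By complex, the median log2 difference was 0.12 in complex I, 0.04 for the assembly factors, 0.02 in complex II, 0.12 in complex III, 0.15 in complex IV, and 0.12 in complex V. At an unadjusted p under 0.05 in either direction, members went from 12 (13%, against 22.2% of all tested genes) to 27 without WT Control mouse A3903 (29.3%, against 20.02%), 20 without WT T1D mouse A1764 (21.7%, against 26.0%), 5 without A3905 and A3906 (5.43%, against 11.0%), and 37 without A3903 and A3679 (40.2%, against 20.03%). The median was 0.18 without A3903, 0.09 without A3905 and A3906, and 0.18 with 86 of 92 members above 0 without A3903 and A3679. Members called were 2 (2.17%) without A1757 or without A3909, where 4.80% and 8.80% of all tested genes were called. They were 1 (1.09%) without A1764, A1758, or KO Control mouse A3766, against 6.72%, 3.75%, and 3.73%, so the share of members was below that of all tested genes in each of these fits.

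Cox6b2, the isoform of a complex IV subunit known from testis, had the largest difference. Its CPM was 14.2, 17.2, 17.3, 21.2, and 26.4 in the 5 WT Control mice and 20.9, 23.9, 27.7, 29.8, 53.8, and 64.8 in the 6 WT T1D mice. The groups overlapped, and the 2 highest values belonged to A3906 and A3905, the mice with the highest hemoglobin share. The log2 difference was 0.93 ± 0.25 (SE), with an adjusted p of 0.0509. Without these 2 mice it was 0.41 (adjusted p = 0.437), and with the erythroid score fitted as a covariate it was −0.08 (adjusted p = 0.999). In each of these fits 0.0% of all tested genes were called. Erythroid scores were 9.944 to 10.483 in WT Control and 10.485 to 11.258 in WT T1D, so the score and diabetes went together in WT. Among A36 to A39 mice alone the Cox6b2 difference was 1.43 (adjusted p = 0.00953). Most WT T1D mice of that subset were A3905 and A3906, and 15.5% of all tested genes were called there. The summed erythroid markers (13 of 14 tested, none at 0 in any mouse, led by Hba-a1 and Hba-a2) were 98774 to 144434 CPM in WT Control and 127533 to 239487 CPM in WT T1D. Their part in the difference was not tested beyond that covariate and leaving out the 2 mice. In KO mice, Cox6b2 was between 11.2 and 25 CPM in Control and between 15.1 and 23.1 CPM in T1D. The widely expressed partner Cox6b1 was at 509 TPM against 76.0 TPM for Cox6b2, and its log2 difference in WT was 0.19 ± 0.09 (adjusted p = 0.231).

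Cox6a1, the most abundant member, came next by p. Its CPM in WT Control was 165, 194, 212, 218, and 218, and in WT T1D it was 206, 235, 247, 250, 252, and 261. All WT T1D mice but the lowest lay above every WT Control mouse. The log2 difference was 0.27 ± 0.08 with an adjusted p of 0.0640 on the TMM scale, and −0.01 on the TPM scale. On the TMM scale it was 0.24 without A3905 and A3906 and 0.13 with the erythroid covariate. In KO mice it was 0.07 ± 0.08.

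The 250 bases before the start of 4 members are shown to set their promoters beside the values. Cox6a1 and Cox6b2 had the lowest p with T1D in WT, Ndufs8 was among the leading members for the difference between genotypes, and Uqcrh was the only member with an unadjusted p under 0.05 and a higher mean in KO mice with T1D. Sequences are from RefSeq on GRCm38.p6, 5′ to 3′ on the strand of the gene. Capitals mark GCATGCGC (NRF1), CCGGAAGT (ETS factors such as GABP), AAGATGGCG (YY1), and CCAAT, searched on both strands, and none of these words contains another.
Cox6a1, chr5:115348959-115349208, - strand: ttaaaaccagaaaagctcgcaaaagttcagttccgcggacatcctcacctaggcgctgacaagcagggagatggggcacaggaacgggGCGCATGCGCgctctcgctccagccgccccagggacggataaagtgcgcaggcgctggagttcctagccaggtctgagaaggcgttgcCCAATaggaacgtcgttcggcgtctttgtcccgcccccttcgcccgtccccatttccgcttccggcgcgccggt
Cox6b2, chr7:4753095-4753344, - strand: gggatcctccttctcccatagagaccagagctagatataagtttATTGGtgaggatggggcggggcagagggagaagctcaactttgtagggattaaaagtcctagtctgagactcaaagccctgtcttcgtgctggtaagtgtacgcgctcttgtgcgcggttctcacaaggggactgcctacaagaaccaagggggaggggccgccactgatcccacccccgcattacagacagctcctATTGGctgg
Ndufs8, chr19:3912775-3913024, - strand: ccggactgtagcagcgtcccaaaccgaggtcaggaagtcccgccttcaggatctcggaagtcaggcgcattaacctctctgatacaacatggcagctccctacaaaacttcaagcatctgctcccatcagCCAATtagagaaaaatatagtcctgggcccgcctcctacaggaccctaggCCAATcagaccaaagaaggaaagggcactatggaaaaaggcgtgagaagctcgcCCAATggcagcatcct
Uqcrh, chr4:116075071-116075320, - strand: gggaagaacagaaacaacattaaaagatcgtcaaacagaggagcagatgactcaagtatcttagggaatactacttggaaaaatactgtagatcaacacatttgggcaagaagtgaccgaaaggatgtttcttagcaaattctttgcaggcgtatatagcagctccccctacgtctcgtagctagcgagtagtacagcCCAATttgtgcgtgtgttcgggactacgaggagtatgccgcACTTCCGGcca
Cox6a1 held GCATGCGC in both orientations, overlapping, and 1 CCAAT. Cox6b2 held CCAAT alone, in 2 places. Ndufs8 had CCAAT in 3 places, and Uqcrh had 1 CCAAT and 1 ETS word close to its start. RefSeq promoters were found for 75 members, 80 promoters in all, each with 250 bases before and 50 after the start. GCATGCGC was in 15% of them, against 4.64% of the promoters of tested genes and 2.71% of all 32851 promoters. AAGATGGCG was in 10%, against 2.60% and 1.40%. CCGGAAGT was in 6.25% (7.05% and 3.89%), and CCAAT was in 42.5% (37.6% and 37.4%). These are matches of letters and say nothing of binding.

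In complex I, Ndufs8, an iron-sulfur subunit of the catalytic core, was at 54.1, 67.4, 67.5, 67.9, and 72.9 CPM in WT Control and at 72.2, 73.6, 78.6, 84.1, 88.3, and 88.4 CPM in WT T1D. A single WT T1D mouse lay below the highest Control mouse. The log2 difference was 0.29 ± 0.10 (adjusted p = 0.104), and among A36 to A39 mice, where A3905 and A3906 are 2 of the 3 WT T1D mice, it was 0.45 (adjusted p = 0.0276). Without A3905 and A3906 it was 0.24 (adjusted p = 0.440), and with the erythroid covariate 0.26 (adjusted p = 0.999). Both of these fits called 0.0% of all tested genes. In limma on log2(TPM + 1) the Ndufs8 difference was 0.01 (adjusted p = 0.932). Ndufa11, an accessory subunit of the membrane arm, was at 42.5 to 56.4 CPM (median 49.3) in WT Control and 55.2 to 65.0 CPM (median 60.2) in WT T1D, a log2 difference of 0.26 ± 0.09 (adjusted p = 0.0944) that was −0.03 on the TPM scale. Ndufa12, an accessory subunit of the peripheral arm, differed by 0.26 ± 0.15 (adjusted p = 0.303). The median was 0.12 over 7 core genes and 0.13 over 30 accessory genes. Among the assembly factors, Ndufaf8 differed by 0.21 ± 0.09 (adjusted p = 0.193) and Ndufaf2 by 0.17 ± 0.17 (adjusted p = 0.605).

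Complex II, which also serves the TCA cycle, had the least difference. Sdhb differed by 0.12 ± 0.13, Sdhd by 0.04 ± 0.08, Sdhc by −0.01 ± 0.08, and Sdha by −0.08 ± 0.07 on the log2 scale, with adjusted p from 0.569 to 0.948. In complex III, Uqcr11 was at 56.3, 57.1, 60.6, 66.0, and 73.4 CPM in WT Control and at 67.4, 68.3, 72.1, 78.3, 80.6, and 84.8 CPM in WT T1D, with a log2 difference of 0.26 ± 0.10 (adjusted p = 0.126) on the TMM scale and −0.01 on the TPM scale. Uqcr10, another small subunit, differed by 0.19 ± 0.12 (adjusted p = 0.368). In complex V, Atp5mpl, a small membrane subunit, was at 19.3, 23.4, 27.1, 27.3, and 33.7 CPM in WT Control and at 27.5, 27.5, 31.4, 35.8, 38.7, and 39.3 CPM in WT T1D. The 2 highest values belonged to A3905 and A3906, and the log2 difference of 0.35 ± 0.14 (adjusted p = 0.132) was the largest of complex V. Atp5b was between 547 and 631 CPM in WT Control and between 601 and 726 CPM in WT T1D, with a difference of 0.19 ± 0.07 (adjusted p = 0.120), and Atp5h, a subunit of the peripheral stalk, differed by 0.20 ± 0.09 (adjusted p = 0.171). On the TPM scale these 2 were −0.10 and −0.07. Without A3905 and A3906, the highest WT T1D mice for both genes, they were 0.13 and 0.15 on the TMM scale. With the erythroid covariate they were 0.08 and 0.07. Of the c-ring genes, Atp5g1 differed by 0.15 ± 0.12, Atp5g2 by 0.01 ± 0.08, and Atp5g3 by −0.03 ± 0.07.

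**Figure D2:**
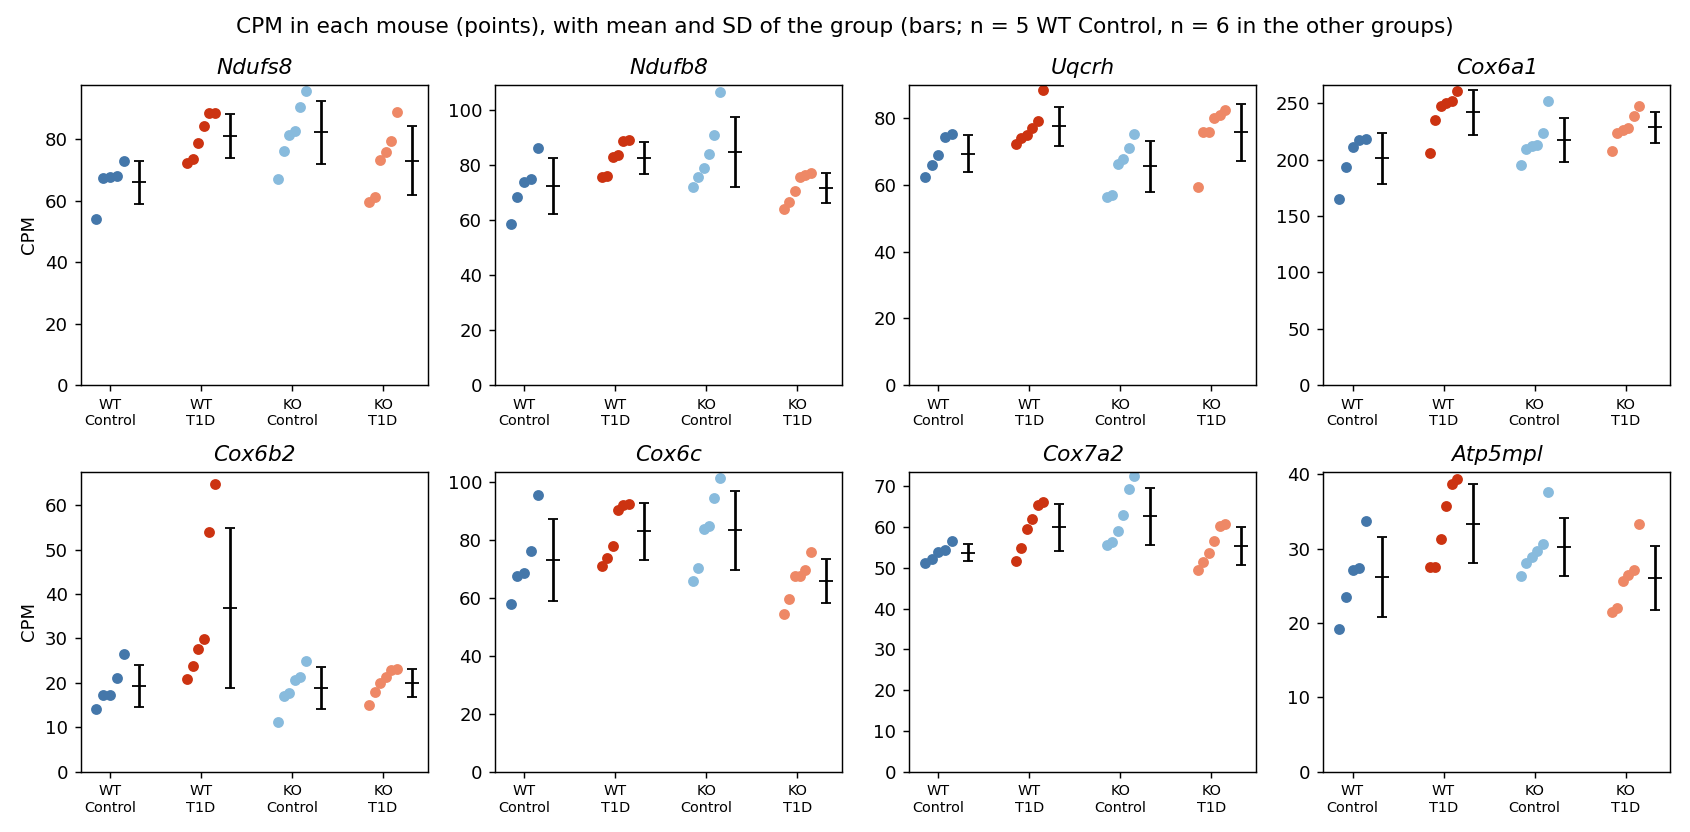
CPM of 8 members in each mouse, by group, with the mean and SD of the group. In WT mice the points with T1D lie higher than those of Control for Ndufs8, Cox6a1, and Atp5mpl with overlap. In KO mice the points with T1D lie lower for Ndufb8 and Cox6c and higher for Uqcrh, also with overlap. On the TPM scale the WT difference was −0.01 for Cox6a1 and 0.01 for Ndufs8.

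In mice labelled Sarm1-KO, the means with T1D were lower for most members. Again 0 members passed the adjusted threshold, as did 0.0% of all tested genes, and 6 had an unadjusted p under 0.05 (6.52%, against 3.15%), of which 5 were lower and 1 higher. The mean was higher in T1D for 22 of 92 members (23.9%, against 49.4% of all tested genes), with a median log2 difference of −0.05. This rested on 1 Control mouse, since without A3679 the mean was higher for 48 of 92 members, the median was 0.01, and 2 members had an unadjusted p under 0.05 (2.17%, against 2.99%). The last number was 12 without KO T1D mouse A3682 (13%, against 3.40%) and 3 without A3683 (3.26%, against 2.95%). Cox6c, a complex IV subunit without a known second isoform, was at 65.7, 70.1, 83.7, 84.7, 94.5, and 101 CPM in KO Control and at 54.3, 59.7, 67.4, 67.6, 69.6, and 75.8 CPM in KO T1D. A3679 was the highest and A3683 the lowest of these 12 mice, and the groups overlapped. The log2 difference was −0.34 ± 0.12 (unadjusted p = 0.00785, adjusted p = 1.00). Ndufb8, an accessory subunit of the complex I membrane arm, was at 72.0, 75.7, 78.8, 83.9, 90.9, and 107 CPM in KO Control and at 64.1, 66.5, 70.3, 75.6, 76.2, and 77.1 CPM in KO T1D, with overlap, a difference of −0.24 ± 0.09 (unadjusted p = 0.0152). Uqcrh, the hinge protein of complex III, went the other way. It was at 56.2, 56.9, 66.2, 67.6, 71.0, and 75.3 CPM in KO Control and at 59.2, 75.7, 75.9, 80.0, 80.8, and 82.5 CPM in KO T1D, where 5 of 6 mice lay above every Control mouse and A3681 lay far below them. The difference was 0.21 ± 0.08 (unadjusted p = 0.02), and in WT mice it was 0.16 ± 0.09.

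The interaction term tests whether the T1D difference itself differed between genotypes. No member passed, and neither did any other gene (0 of 92 and 0.0% of all tested genes, lowest adjusted p 0.479). At an unadjusted p under 0.05, 18 members had an interaction below 0 (19.6%, against 5.4% of all tested genes) and 0 members one above 0 (against 4.81%). These were 9 of complex I, 5 of complex V, 3 of complex IV, and 1 of complex III. The interaction was below 0, that is, T1D minus Control was lower in KO than in WT mice, for 77 of 92 members (83.7%, against 49.0% of all tested genes) with a median of −0.18. On the TPM scale this median was 0.05 for members and 0.20 for all tested genes, and on both scales members lay below the median of all tested genes, by −0.19 and −0.15. The number with an unadjusted p under 0.05 was 9 of 92 without KO Control mouse A3679, 30 without WT Control mouse A3903, 17 without both, and 10 without A3905 and A3906. The share of all tested genes, in either direction, was 9.56%, 10.8%, 9.86%, and 4.66% in these fits. In limma on log2(TPM + 1), 4 members had an unadjusted p under 0.05, all above 0 (4.35%, against 22.6% in either direction). Among A36 to A39 mice in edgeR, 20 members did, all below 0 (21.7%, against 22.4% in either direction). The 3 lowest p were those of Ndufb8 (−0.43 ± 0.13, unadjusted p = 0.00352), Ndufs8 (−0.46 ± 0.14, unadjusted p = 0.00360), and Cox6c (−0.52 ± 0.17, unadjusted p = 0.00543), each with an adjusted p of 0.479. For Ndufs8, WT Control had a mean of 65.9 ± 7.02 CPM (SD, n = 5), WT T1D 80.9 ± 7.15, KO Control 82.1 ± 10.1, and KO T1D 72.9 ± 11.2 (n = 6 each). The WT and KO differences share no mice, but each shares its groups with the interaction and the genotype comparisons. Averaged over genotypes, T1D gave a median of 0.02 on the TMM scale and −0.15 on the TPM scale, with 0 members called (0.111% of all tested genes) and 6 with an unadjusted p under 0.05 (6.52%, against 16.4%). That number was 12 without A3679 (13%, against 15.2%), 18 without A3903 and A3679 (19.6%, against 13.4%), 3 without A1787, A3670, or A3675 (3.26%, against 14.2% to 15.4%), and 2 without A3905 and A3906 (2.17%, against 10.8%).

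**Figure D3:**
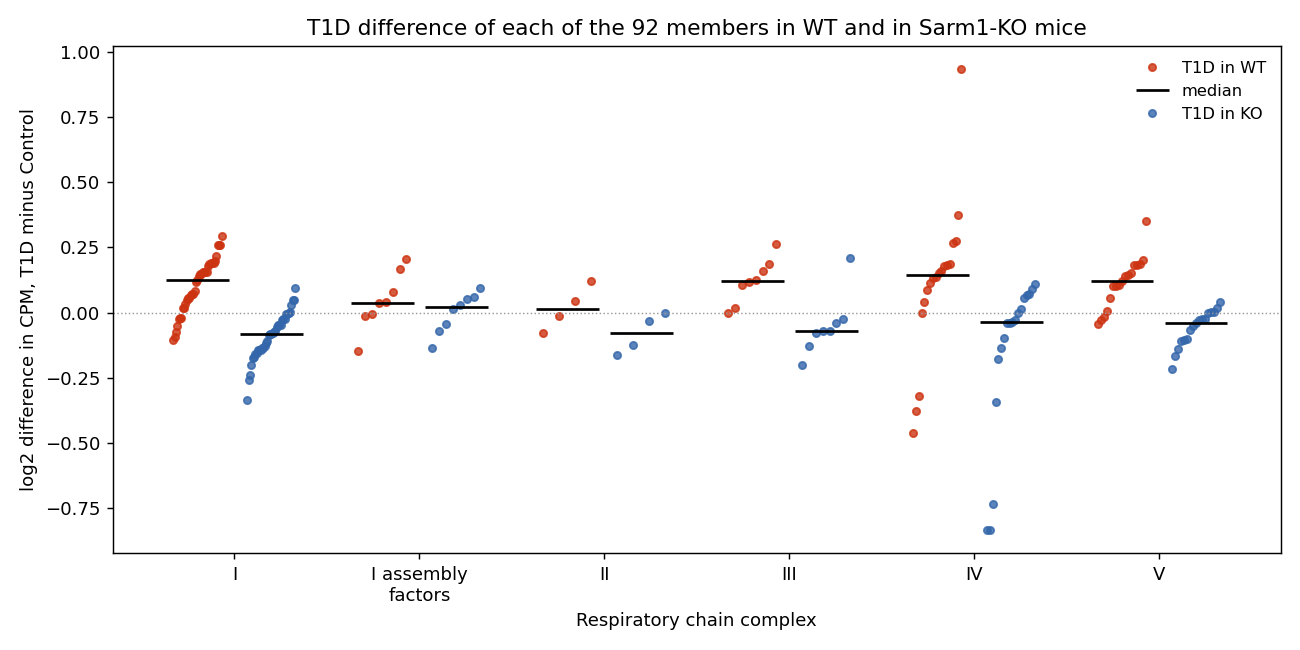
log2 difference in TMM-normalized CPM, T1D minus Control, of each of the 92 members in WT mice and in mice labelled Sarm1-KO, by complex, with the median of each complex as a line. Medians in WT lie above 0 (−0.16 for all members on the TPM scale), and those in KO lie below 0 except for the assembly factors (0.01 for all members without mouse A3679).

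Between genotypes without diabetes, 0 members were called (0.0278% of all tested genes), and 4 had an unadjusted p under 0.05 (4.35%, against 4.8%). The mean was higher in KO Control for 73 of 92 members (79.3%, against 49.9% of all tested genes) with a median of 0.08. Without A3679 it was higher for 45 of 92 with a median of −0.00. Members with an unadjusted p under 0.05 were 15 without A3903 (16.3%, against 4.90%), 7 without A3679 (7.61%, against 4.84%), and 8 without KO Control mouse A3680 (8.70%, against 3.91%). The lowest p were those of Ndufs8 (0.32 ± 0.10, unadjusted p = 0.00583), Cox7a2, the widely expressed form of a complex IV subunit (0.22 ± 0.08, unadjusted p = 0.0104), and Atp5e, the ε subunit of ATP synthase (0.30 ± 0.11, unadjusted p = 0.0107), all with adjusted p of 0.999. Cox7a2 was between 51.1 and 56.5 CPM in WT Control and between 55.7 and 72.5 CPM in KO Control, and Atp5e was between 30.8 and 37.9 CPM and between 32.2 and 51.1 CPM. A3679 was the highest Control mouse for each of these 3 genes. With diabetes, 0 members were called (0.0905% of all tested genes), and 17 had an unadjusted p under 0.05 (18.5%, against 17.1%), 15 lower and 2 higher in KO T1D. The mean was lower in KO T1D for 82 of 92 members (89.1%, against 48.7% of all tested genes). The median was −0.10 on the TMM scale (0.01 for all tested genes) and 0.08 on the TPM scale (0.17 for all tested genes there). Without A3905 and A3906, 5 members had an unadjusted p under 0.05 (5.43%, against 6.46%), 4 of them lower in KO T1D, and the median was −0.08. With the erythroid covariate the number was 8 (8.70%, against 6.26%), and with the skeletal muscle covariate it was 7 (7.61%, against 17.7%) with a median of −0.01. It was 11 without KO T1D mouse A3683 (against 14.8%). Without WT T1D mouse A3909, 1 member was called (1.09%, against 0.662%).

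Isoforms known from a restricted set of tissues were followed beside their partners. Cox6a2, Cox7a1, and Cox8b, the complex IV isoforms of striated muscle, varied more between mice than other members. Cox6a2 was at 55.3, 75.5, 81.0, 88.7, and 292 CPM in WT Control and at 87.1, 122, 122, 150, 219, and 222 CPM in WT T1D. It was at 39.7, 43.8, 60.4, 105, 210, and 474 CPM in KO Control and at 21.7, 31.4, 77.7, 94.8, 146, and 151 CPM in KO T1D. The highest mice were A3903 and A3679 and the lowest were A3676 and A3675, as they were for the summed skeletal muscle markers (17 of 17 tested, none at 0 in any mouse, led by Acta1 and Atp2a1). These markers summed to 1843 to 11667 CPM in WT Control, 3048 to 7206 CPM in WT T1D, 941 to 11001 CPM in KO Control, and 304 to 5961 CPM in KO T1D. The log2 T1D difference of the 3 isoforms lay between −0.38 and 0.37 in WT and between −0.83 and −0.73 in KO mice, with SE from 0.56 to 0.68. Muscle carried with the bone and expression within bone cannot be told apart here. Ndufa4l2 and Cox4i2, both known as hypoxia-responsive isoforms, differed in WT by −0.46 ± 0.29 (adjusted p = 0.360) and −0.32 ± 0.23 (adjusted p = 0.418). Ndufa4l2 was at 5.87, 7.34, 9.27, 11.0, and 14.0 CPM in WT Control and at 3.58, 3.79, 5.83, 6.37, 9.68, and 12.1 CPM in WT T1D, and the lowest 2 were A3906 and A3905. With the erythroid score as a covariate its difference was 0.36. The 7 widely expressed partners (Cox4i1, Cox6a1, Cox6b1, Cox7a2, Cox7b, Cox8a, and Ndufa4) all had higher means in WT T1D on the TMM scale, from 0.04 ± 0.07 for Cox8a to 0.27 ± 0.08 for Cox6a1. However, 0 of 7 were called, against 2.33% of all tested genes, and Cox6a1 was −0.01 on the TPM scale.

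When each mouse was set against the WT Control mean, the median log2 difference over the members was −0.10, −0.08, −0.01, −0.00, and 0.19 in the 5 WT Control mice and 0.03, 0.07, 0.12, 0.13, 0.15, and 0.17 in the 6 WT T1D mice. WT T1D mice thus lay above 4 of 5 Control mice, and the exception was A3903. In KO Control, values were −0.12, −0.08, 0.05, 0.08, 0.09, and 0.35, and in KO T1D −0.04, −0.03, −0.03, −0.02, 0.02, and 0.14. The highest KO Control mouse was A3679. For comparison, the same median over all tested genes lay between −0.02 and 0.02 in every mouse. A3903 and A3679 also had the most muscle marker RNA, as given above, and the part of muscle in the members' values was not tested beyond the covariate. With the muscle score as a covariate, the median T1D difference was 0.10 in WT and −0.01 in KO, and the interaction median was −0.12.

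**Figure D4:**
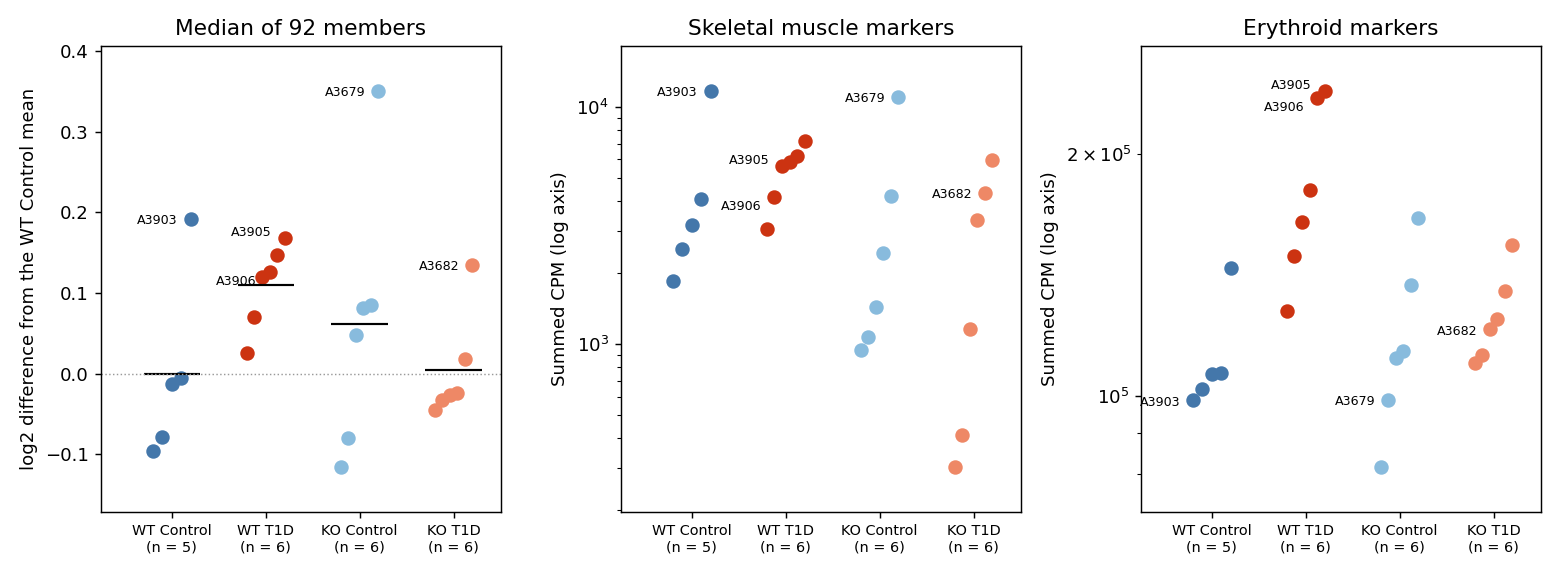
Each point is 1 mouse. The left panel gives the median over 92 members of the log2 CPM difference from the WT Control mean, with the group mean as a line, and the other panels give summed skeletal muscle and erythroid marker CPM on log axes. A3903 and A3679 are the highest mice of their groups for members (0.19 and 0.35) and for muscle markers, and A3905 and A3906 are the highest for erythroid markers.

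In the list of other electron carriers and ATP synthase genes (4 tested), Atpif1 was the 1 gene called, higher with T1D in WT. Of all tested genes, 2.33% were called there. Atpif1 encodes the ATP synthase inhibitory factor and is also known for a role in erythroid heme synthesis. It was at 269, 280, 308, 326, and 395 CPM in WT Control and at 346, 388, 409, 475, 561, and 743 CPM in WT T1D, where A3906 and A3905 were highest. The log2 difference was 0.63 ± 0.16 (adjusted p = 0.0460). The call was lost without A3905 and A3906 (0.36, adjusted p = 0.346) and with the erythroid covariate (0.12, adjusted p = 0.999). In both of these fits 0.0% of all tested genes were called, so the loss is not particular to Atpif1. In edgeR it was also lost with library size alone (adjusted p = 0.0526), with no filter (0.0547), and without A3903 and A3679 (0.0987). In limma on log2(TPM + 1) the difference was 0.30 (adjusted p = 0.0522). The call stayed with DESeq2, with its size factors in edgeR, with the muscle covariate, and among A36 to A39 mice. In that last subset most WT T1D mice were A3905 and A3906, and 15.5% of all tested genes were called. In KO mice the difference was 0.04 ± 0.15, and the interaction was −0.58 ± 0.22 (adjusted p = 0.479). Usmg5, a small ATP synthase subunit, differed by 0.20 ± 0.11 in WT and −0.20 ± 0.10 in KO mice. Of 40 further assembly factors of the chain, 0 were called, and the largest differences in WT were −0.57 ± 0.20 for Ttc19, a complex III assembly factor (adjusted p = 0.0965), and 0.43 ± 0.25 for Nubpl, which serves complex I (adjusted p = 0.313). Of 17 genes of the TCA cycle and pyruvate dehydrogenase, 0 were called (2.33% of all tested genes) and 14 had higher means on the TMM scale with a median of 0.04, against 0 of 17 with a median of −0.24 on the TPM scale, where the median of all tested genes was also −0.24. The largest differences were those of Idh3g, a subunit of isocitrate dehydrogenase (0.26 ± 0.08, adjusted p = 0.0629), and Mdh2, malate dehydrogenase (0.18 ± 0.08, adjusted p = 0.198). Of 8 carriers and uncoupling proteins, 0 were called, with differences of 0.87 ± 0.58 for Ucp3 and 0.36 ± 0.13 for Ucp2 (adjusted p = 0.388 and 0.112).

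Among 13 regulators of mitochondrial biogenesis, 0 were called in either genotype by edgeR, against 2.33% of all tested genes in WT and 0.0% in KO. In limma on log2(TPM + 1), 6 of 13 were called in WT, where 35.9% of all tested genes were called. The median on that scale was −0.23 for the regulators and −0.24 for all tested genes. Nrf1, a transcription factor of nuclear respiratory genes, was at 35.6 to 42.7 CPM in WT Control and 39 to 62.5 CPM in WT T1D, a log2 difference of 0.32 ± 0.11 (adjusted p = 0.105), against −0.03 ± 0.11 in KO mice. The coactivator Ppargc1a was low, at 0.329 to 2.03 CPM in WT Control and 0.463 to 3.10 CPM in WT T1D (0.70 ± 0.58), and at 0.597 to 5.61 CPM in KO Control and 0.491 to 2.10 CPM in KO T1D (−0.57 ± 0.54). A3903 and A3679 were again the highest Control mice. Tfam, which packages and transcribes mitochondrial DNA, differed by 0.15 ± 0.12 in WT, Gabpa by 0.02 ± 0.08, and Esrra by −0.03 ± 0.11. In KO mice, Twnk, the mitochondrial helicase (0.29 ± 0.10), and the coactivator Pprc1 (0.17 ± 0.07) had unadjusted p of 0.00710 and 0.0189. They were the 2 of 13 regulators under 0.05 there (15.4%, against 3.15% of all tested genes). The lowest adjusted p of any gene in KO was 0.797. The remaining regulators, Tfb1m, Tfb2m, Ppargc1b, Gabpb1, Polg, and Polrmt, lay between −0.12 and 0.17 in WT.

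The scale decides the sign of the WT difference. On the TPM scale, where hemoglobin genes take up to 46.9% of the total, 11 members passed the adjusted threshold in limma on log2(TPM + 1), 10 lower and 1 (Cox6b2) higher in WT T1D, while 83 genes of all tested were higher and 5071 lower (12% of members and 35.9% of all tested genes). With hemoglobin genes removed and TPM rescaled, 0 members passed, and the median was 0.07 for members and −0.06 for all tested genes. With library size alone in place of TMM, the median was 0.05 for members and −0.08 for all tested genes. Members lay above the median of all tested genes under each of these settings.

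**Figure D5:**
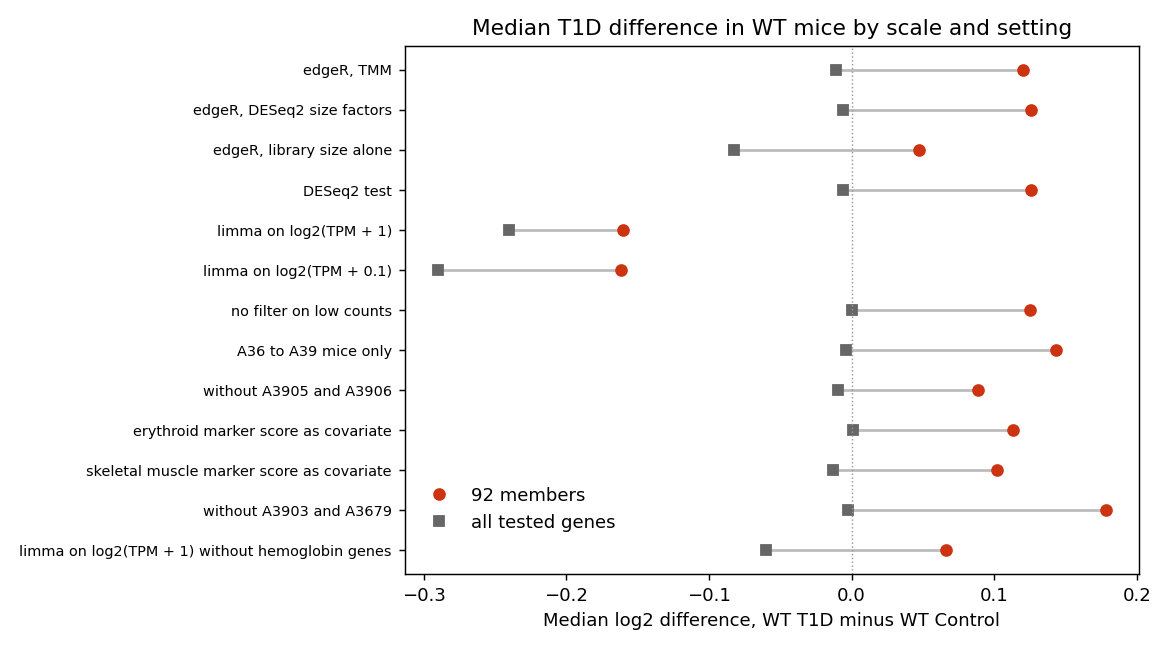
Median log2 difference, WT T1D minus WT Control, over the 92 members (circles) and over all tested genes (squares) under each setting. The member median is below 0 only on the 2 TPM scales that keep hemoglobin genes, where the median of all tested genes is −0.24 and −0.29, and the circle lies to the right of the square in all settings shown.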

How the data were processed

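Bulk RNA from bone of 23 mice was analysed from gene tables. The deposited expected counts are RSEM estimates that the authors' tables hold as whole numbers, and the deposited TPM values rescale them by gene length. Upstream, SOAPnuke cleaned the reads, HISAT and Bowtie2 placed them on GRCm38.p6, and the library kit selected poly(A) RNA and kept strand. Hemoglobin RNA takes a large share of the counts, which weighs on any scale that fixes the total.

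The 14364 genes past the filter (10 counts in 5 or more mice) were normalized with TMM and fitted as 1 mean per group in edgeR 4.0.16 (R 4.3.3) with the quasi-likelihood F test, and p values were adjusted over all of these genes with the Benjamini-Hochberg method (threshold 0.05). All adjusted and unadjusted p in the text are two-sided and from this fit unless another tool is named. SE is the absolute log2 difference divided by the square root of F. The alternatives used limma 3.58.1 on log2(TPM + 1) or log2(TPM + 0.1), DESeq2 1.42.0, other normalizations, no filter, marker scores (mean log2(CPM + 0.5) of a marker list) as covariates, and leaving out mice. Plots used matplotlib 3.10.9 and summaries pandas 2.3.3, under Python 3.11.15. The fits were also run on simulated counts in which a known set of genes changed. Those counts held no shift in cell makeup between groups, so they do not test the choice of scale. Mice are 1 library each, so p values measure the spread between mice. Lists, members, and tests were chosen with earlier results of these data known.

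Named members were, for each complex and the assembly factors, the 2 largest differences and the lowest p with T1D in WT, the 3 lowest p for the interaction, for T1D in KO, and for genotype in Control, the highest and lowest TPM of each complex, all complex II genes, and all isoform lists. From the pathway lists, all biogenesis regulators and the 2 largest differences of each other list were named. Marker lists of 8 cell types were summed per mouse. Mitochondrially encoded subunits were not analysed here.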

Additional observations from a re-analysis of the deposited data

Results flagged for a closer look

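Among 22 measures tested in each of the 4 groups (88 sets of values), 11 held a mouse that stood far from the others of its group. Chance flags about 1 in 20 such sets if values are normal and sets independent. The measures here overlap, so the 11 cannot be weighed against that rate. WT Control mouse A3903 stood apart for the muscle isoforms, with 292 CPM of Cox6a2 (others 55.3 to 88.7), 25.3 CPM of Cox7a1 (4.00 to 6.94), 61.3 CPM of Cox8b (9.11 to 19.2), and 379 CPM for the sum of the 3 (68.4 to 115), and its members held 2.38% of TPM without hemoglobin (1.86% to 1.91%). KO Control mouse A3679 stood apart for Uqcr11, at 91.7 CPM (58.1 to 70.0), and for the share of TPM without hemoglobin, at 2.56% (1.85% to 2.07%). KO T1D mouse A3682 had a members' median log2 difference from the WT Control mean of 0.14 (−0.04 to 0.02), and KO T1D mouse A3681 had 59.2 CPM of Uqcrh (75.7 to 82.5). Cox4i2 was high in WT Control mouse A3907, at 7.66 CPM (3.96 to 4.96), and in WT T1D mouse A3909, at 7.17 CPM (2.72 to 4.22). No named member passed the adjusted threshold for a difference between genotypes in the T1D response.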

How the results depend on the processing

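No paired analysis was possible because the mouse IDs were not shared between groups. The number of members called, 0 in all 6 comparisons, moved for T1D in WT to 2 with DESeq2 (2.17%, against 6.98% of all tested genes), 11 on either TPM scale (12%, against 35.9% and 36.01%), 4 among A36 to A39 mice (4.35%, against 15.5%), and 2 with the muscle covariate (2.17%, against 4.20%). It moved for T1D averaged over genotypes to 1 (1.09%) on either TPM scale and among A36 to A39 mice (against 7.70%, 6.62%, and 3.75%), and for genotype in T1D to 2 with DESeq2 (2.17%, against 1.66%), 1 on either TPM scale (against 8.12% and 8.25%), and 4 among A36 to A39 mice (4.35%, against 10.8%). Leaving out each of 23 mice in turn gave 0 to 2 called for T1D in WT, 0 to 1 for genotype in T1D, and 0 for the others. The median over members turned its sign on log2(TPM + 1) and log2(TPM + 0.1) for T1D in WT (−0.16 on both), the interaction (0.048 and 0.049), T1D averaged over genotypes (−0.15 on both), and genotype in T1D (0.085 and 0.087). For T1D averaged over genotypes, this median was also below 0 with library size alone (−0.040) and without A3905 and A3906 (−0.0009). Leaving out 1 mouse, it ranged from 0.09 to 0.18 for T1D in WT, −0.10 to 0.01 in KO, −0.23 to −0.12 for the interaction, −0.00 to 0.05 for T1D averaged over genotypes, −0.00 to 0.11 for genotype in Control, and −0.14 to −0.09 for genotype in T1D. The members' share of TPM moved to 1.99%, 2.12%, 2.06%, and 1.92% (WT Control, WT T1D, KO Control, KO T1D) without hemoglobin genes. With T1D in WT, single genes reversed on both TPM scales for Cox6a1 (−0.010), Ndufa11 (−0.026), Ndufa12 (−0.0058), Ndufaf8 (−0.069 and −0.071), Uqcr11 (−0.011), Atp5b (−0.10), and Atp5h (−0.070), and with the erythroid covariate for Cox6b2 (−0.083) and Ndufa4l2 (0.36). The other medians moved by less than 1 SD between mice (0.11). Leaving out A3903 and A3679 and removing hemoglobin genes from TPM were chosen after seeing the data. The cause of these shifts was not tested. Calls among all genes in WT are as fragile, from 0 to 1262 genes when 1 mouse was left out, so that 2.33% is itself uncertain at this number of mice.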
